A study of Mus musculus with 2 samples.

Results

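B cell genes were examined in the RNA of mouse Th1 cultures that differ in the gene of chitinase 3-like 1, Chi3l1. The genes comprise the B cell receptor and its co-receptors, other surface proteins, signaling proteins, transcription factors, and genes of germinal centre and plasma cell stages. They were given by name, as 34 symbols. Of these, Jchain and Igj are names of a single gene and Faim3 is listed as Fcmr, so the symbols correspond to 33 of the 24421 genes in the tables. The study sequenced 1 library labelled WT (Chi3l1+/+) and 1 library labelled Chi3l1 KO (Chi3l1-/-), both from CD4 T cells of C57BL/6J mice skewed to Th1 in vitro. Such cells start as naïve CD4 T cells, purified by magnetic beads or by sorting, and are activated through CD3 and CD28 with IL-12, IL-2 and an antibody to IL-4. The KO mice lack the gene in every cell and not in T cells alone. Whether the sequenced cells were bead-purified or sorted, from how many mice, and on which day of culture is not given in the sources used here.

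B cells detect antigen through a membrane immunoglobulin held by the signaling pair CD79A and CD79B. Antigen binding lets Src-family kinases phosphorylate that pair, the kinase SYK docks there, and the adaptor BLNK passes the signal on to BTK. The factors EBF1 and PAX5 set and hold the identity of the lineage. Activated B cells can enter a germinal centre, where CD40 signals from helper T cells sustain them, and can end as plasma cells, which shut down much of the mature B cell program to secrete antibody. Several of these genes are also used by dendritic cells, macrophages or T cells. Immunoglobulin genes are not in the tables analysed here.

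Promoters were searched for the octamer motif, known to be bound by the POU factors that recruit the product of Pou2af1, and for the motif of early B cell factor. RefSeq promoters (build GRCm38.p6, 250 bases before to 50 after the start) were found for 26 of the 33 genes. The octamer, ATGCAAAT on either strand, was in the promoters of Blnk and Vpreb3, 2 of 26 genes (7.69%), compared to 1.97% of all 27025 genes with a promoter. Of the 6 promoters with either motif, 3 are shown with the motif in capitals, both octamer promoters and that of Cd22 as an example of the other motif. The promoter of Blnk lies at chr19:40994172-40994471 on the minus strand, and its octamer begins 130 bases before the start. The promoter of Vpreb3 lies at chr10:75948050-75948349 on the plus strand, and its octamer begins 45 bases before the start. Both octamers are read here as the reverse complement.
Blnk: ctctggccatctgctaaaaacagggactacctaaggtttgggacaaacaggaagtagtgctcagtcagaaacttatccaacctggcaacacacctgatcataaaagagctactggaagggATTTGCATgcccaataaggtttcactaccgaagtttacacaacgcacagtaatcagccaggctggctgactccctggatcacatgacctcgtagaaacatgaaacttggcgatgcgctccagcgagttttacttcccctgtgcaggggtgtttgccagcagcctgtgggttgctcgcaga
Vpreb3: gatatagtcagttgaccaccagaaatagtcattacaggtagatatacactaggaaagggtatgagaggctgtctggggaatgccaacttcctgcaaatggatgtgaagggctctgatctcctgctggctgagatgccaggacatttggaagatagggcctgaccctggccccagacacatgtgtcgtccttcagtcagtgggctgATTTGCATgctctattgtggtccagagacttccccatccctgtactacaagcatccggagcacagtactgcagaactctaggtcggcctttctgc
The early B cell factor motif, CCCNNGGG on either strand, was in the promoters of Bank1, Cd22, Sdc1 and Spib. These are 4 of 26 genes (15.4%), the same share as among all genes with a promoter (15.4%). The promoter of Cd22, at chr7:30878979-30879278 on the minus strand, holds it 48 bases before the start.
Cd22: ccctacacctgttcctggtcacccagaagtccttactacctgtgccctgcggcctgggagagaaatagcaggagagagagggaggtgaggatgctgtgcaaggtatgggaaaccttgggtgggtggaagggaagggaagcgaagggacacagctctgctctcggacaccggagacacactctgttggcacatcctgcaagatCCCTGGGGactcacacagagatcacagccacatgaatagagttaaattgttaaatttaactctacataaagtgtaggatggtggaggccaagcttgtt
A match of letters is a description of the sequence and not a bound site.

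The deposited value of a gene is a log2 value of a normalized count plus 1, and every difference given here is the value in the library labelled Chi3l1 KO minus that in the library labelled WT. Low values fall on whole multiples of 1 read, worth 0.965 in the library labelled WT and 0.963 in that labelled Chi3l1 KO, so approximate read numbers could be rebuilt. They summed to 70931343 and 63253257 reads. With 1 library per genotype there are no replicates and no test between genotypes. Each fold is given with a 95% exact binomial (Clopper-Pearson) interval, which covers the counting error of reads only and not the variation between mice or cultures. The targeted gene goes against the labels. Chi3l1, listed as Chil1, had 1 read in the library labelled WT and 104 reads in the library labelled Chi3l1 KO, and a value per gene does not show whether reads come from exons left in place by the targeting. Every direction below therefore rests on the labels as given.

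Most B cell genes were higher in the library labelled Chi3l1 KO. Tnfrsf17 had no read in either library and Jchain had 2 reads in 1 of them, and the other 31 genes had more than 3 reads in at least 1 library. Of these 31 genes, 26 were higher in the library labelled Chi3l1 KO and 5 were lower, compared to 48.4% of all 14849 genes over 3 reads that were higher. At least 2-fold higher on the deposited scale were 10 of the 31 genes (32.3%), compared to 6.03% of all genes over 3 reads. None of the 31 genes was at least 2-fold lower, compared to 7.74% of all such genes. Over the whole table of 24421 genes, including those at or under 3 reads, the shares were 4.7% higher and 5.81% lower. The median difference was 0.81 on the log2 scale, beside -0.01 over all genes over 3 reads. The interval of the fold lay above 1 for 22 of the 31 genes, below 1 for Ralgps2 and Pou2af1, and held 1 for 7. Over all genes, 31.2% lay above 1 and 33.4% below it. In a mixed culture, more B cells and more of these transcripts per cell cannot be told apart.

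**Figure D1:**
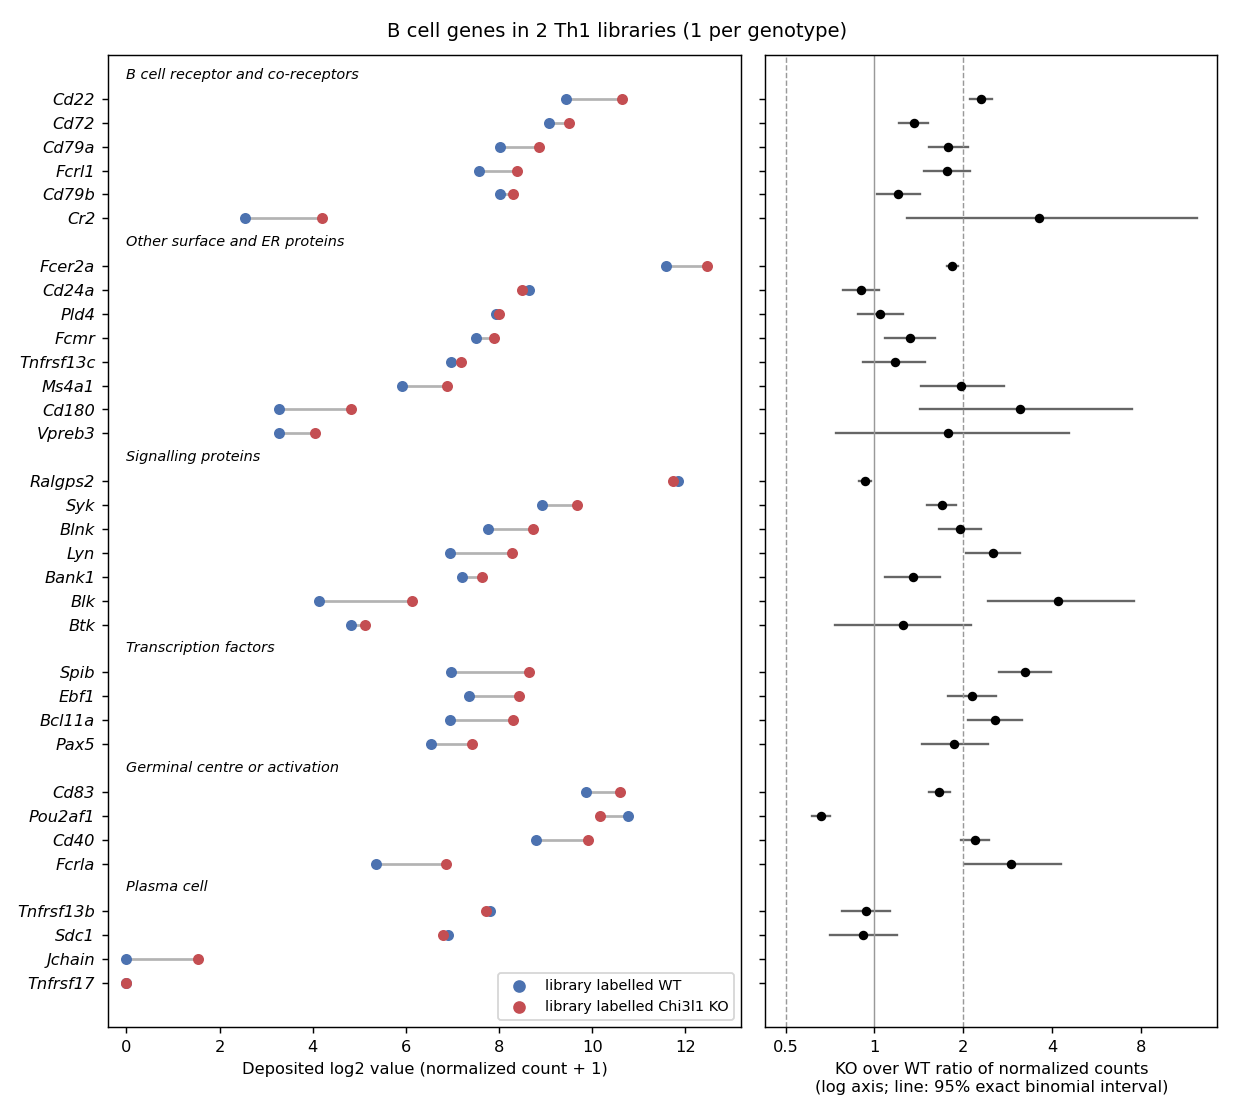
Left, deposited log2 value of each B cell gene in the library labelled WT (blue) and the library labelled Chi3l1 KO (red), grouped by role. Right, ratio of normalized counts on a log axis with its 95% exact binomial interval, with lines at ratios of 0.5, 1 and 2. Of the 31 genes with a ratio, 26 lie to the right of 1, and Pou2af1 lies farthest to the left.

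Over all genes, the share at least 2-fold higher was larger at low levels, so the B cell genes were also read within levels. Genes were grouped by the higher of their deposited log2 values in the 2 libraries. From 8 to 10, 5 of 12 B cell genes were at least 2-fold higher (Lyn, Ebf1, Spib, Bcl11a and Cd40), compared to 1.78% of all 3027 genes at that level. From 10 to 12, Cd22 was 1 of 4 B cell genes, compared to 0.571% of all genes. From 6 to 8, 2 of 10 were (Blk and Fcrla), compared to 6.6%. From 4 to 6, 2 of 4 were (Cr2 and Cd180), compared to 14.4%. Fcer2a was the only member above 12, with a log2 difference of 0.88, where 0.211% of all genes were at least 2-fold higher and 95% were at 0.41 or less.

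**Figure D2:**
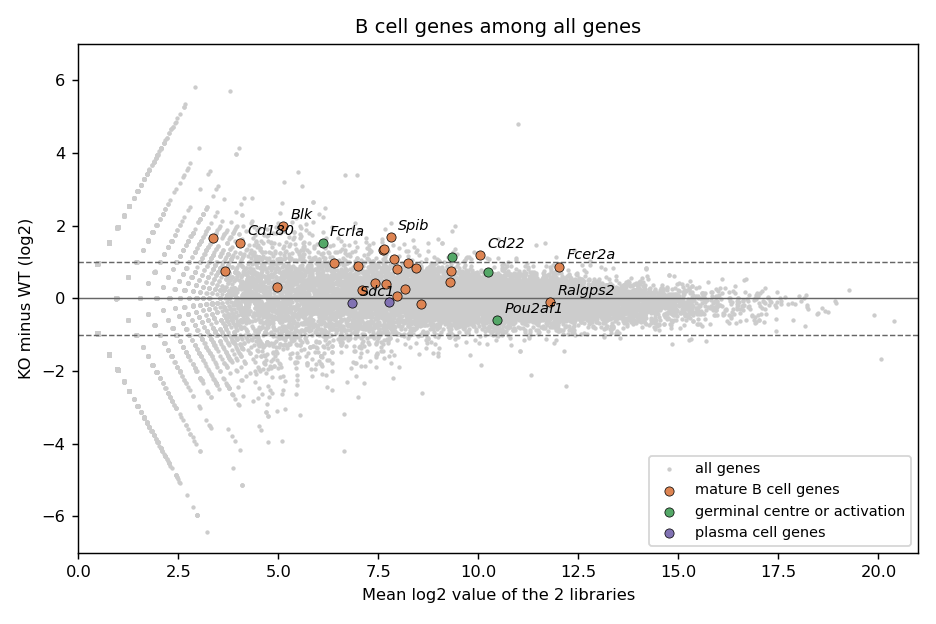
Difference of the deposited log2 values (KO minus WT) against their mean, for every gene above 0 in at least 1 library (grey) and for the B cell genes by stage (colored), with dashed lines at 2-fold. The mature B cell genes lie mostly above 0 across the range of levels, with a median of 0.83.

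All 6 genes of the receptor and its co-receptors were higher in the library labelled Chi3l1 KO, from 0.27 for Cd79b to 1.66 for Cr2 on the log2 scale. Cd79a (chromosome 7, 24897381 to 24902197, GRCm38) had a log2 value of 8.02 in the library labelled WT and 8.85 in the library labelled Chi3l1 KO. This is a 1.78-fold ratio with an interval from 1.53 to 2.07. Its partner Cd79b (chromosome 11, 106311341 to 106314762) had 8.03 and 8.29, a 1.20-fold ratio with an interval from 1.02 to 1.42. As normalized counts per kilobase of exon, the partners were at 178 and 182 in the library labelled WT and at 316 and 219 in the library labelled Chi3l1 KO. The intervals of the ratios of Cd79a and Cd79b do not overlap. Cd22, an inhibitory co-receptor that binds sialic acid, had 9.45 and 10.64, a 2.29-fold ratio with an interval from 2.10 to 2.51. Cd72, another inhibitory co-receptor, had 9.07 and 9.51, and Fcrl1, an Fc receptor-like protein, had 7.57 and 8.38. Cr2, the complement receptor that lowers the threshold of B cell activation, had only 5 and 18 reads, and its ratio of 3.62 has an interval from 1.29 to 12.4. Exons of Cd72 share 1423 of 3422 bases with Tesk1 on the opposite strand, which had log2 values of 11.13 and 10.44. The strand setting of the counting is not given in the sources used here, so reads of Cd72 and Tesk1 may be mixed.

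Of the 8 genes of other surface and membrane proteins, 7 were higher in the library labelled Chi3l1 KO, with a median log2 difference of 0.58. Fcer2a encodes CD23, the low-affinity IgE receptor of mature B cells, and had log2 values of 11.58 and 12.46. It had 3178 and 5846 reads. Its ratio was 1.84 with an interval from 1.76 to 1.92. Ms4a1, which encodes the B cell marker CD20, had log2 values of 5.91 and 6.87, from 61 and 121 reads, and its ratio of 1.97 has an interval from 1.44 to 2.74. The ratio of Fcer2a, measured with far more reads, lies within the interval of Ms4a1. Cd180, a receptor of the Toll-like receptor family, had 9 and 28 reads and a ratio of 3.12, with an interval from 1.42 to 7.48. Exons of Cd180 share 182 of 4509 bases with Mast4 on the opposite strand, which had log2 values of 7.83 and 7.32. Reads of Cd180 and Mast4 may therefore be mixed as well. Vpreb3, an endoplasmic reticulum protein of B cells, had 9 and 16 reads and an interval that holds 1. Fcmr, the IgM receptor listed as Faim3, had 186 and 245 reads, a 1.32-fold ratio with an interval from 1.08 to 1.60.
The remaining surface genes showed ratios near 1. Tnfrsf13c, which encodes the BAFF receptor needed for survival of mature B cells, had 6.97 and 7.19, and its ratio of 1.17 has an interval from 0.917 to 1.49. Pld4, an endolysosomal nuclease also made by dendritic cells, had 252 and 264 reads, and its ratio of 1.05 has an interval from 0.876 to 1.25. Cd24a had 8.65 and 8.50, and its interval holds 1. Reads with several alignments were counted by the authors, so genes with near-identical copies such as Cd24a are uncertain.

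Of the 7 signaling genes, 6 were higher in the library labelled Chi3l1 KO. Blk (chromosome 14, 63372836 to 63417037), a Src-family kinase of B cells, had the largest ratio of all members. It had 17 reads in the library labelled WT and 71 reads in the library labelled Chi3l1 KO, a ratio of 4.18 with an interval from 2.43 to 7.55. Lyn, a Src-family kinase that B cells share with myeloid cells, had 6.96 and 8.29, a 2.52-fold ratio with an interval from 2.05 to 3.12. Syk, the kinase that docks on the CD79 pair, had 8.93 and 9.68, and Blnk, the adaptor downstream of it, had 7.76 and 8.73. Their ratios were 1.69 and 1.95, with intervals from 1.51 to 1.89 and from 1.66 to 2.30. The next kinase of this chain, Btk, had few reads, 28 and 35. Its ratio of 1.25 has an interval from 0.737 to 2.13, which also holds the ratios of Syk and Blnk. Bank1, a scaffold protein of B cells, had 7.21 and 7.64, a 1.35-fold ratio with an interval from 1.08 to 1.67. Ralgps2, a guanine nucleotide exchange factor for Ral GTPases, went the other way. It had log2 values of 11.85 and 11.74, and was 1.08-fold higher in the library labelled WT, with an interval from 1.03 to 1.13. When the libraries were scaled to their summed counts without the ribosomal precursor Rn45s, its difference changed sign.

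All 4 transcription factor genes were higher in the library labelled Chi3l1 KO, with a median log2 difference of 1.22. Spib (chromosome 7, 44525993 to 44532071), an Ets factor of B cells and plasmacytoid dendritic cells, had 6.97 and 8.65. This is a 3.24-fold ratio with an interval from 2.64 to 3.96. Bcl11a, a zinc finger factor of the same cells, had 6.96 and 8.30, a 2.56-fold ratio with an interval from 2.07 to 3.15. The factors that define the lineage had smaller ratios. Ebf1 had 7.35 and 8.44, a 2.14-fold ratio with an interval from 1.77 to 2.58, and Pax5 had 6.54 and 7.43, a 1.86-fold ratio with an interval from 1.45 to 2.42. The interval of Spib lies above those of Ebf1 and Pax5, while the interval of Bcl11a overlaps both.

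The 4 members linked to germinal centres or activation did not shift alike. Fcrla, an intracellular Fc receptor-like protein of germinal centre B cells, had 41 and 120 reads, a 2.90-fold ratio with an interval from 2.03 to 4.27. Cd40, the receptor for CD40 ligand, had log2 values of 8.79 and 9.92, a 2.19-fold ratio with an interval from 1.96 to 2.45. Cd83, an activation marker of B cells, dendritic cells and T cells, had 9.87 and 10.60, a 1.66-fold ratio with an interval from 1.53 to 1.80. Pou2af1 (chromosome 9, 51213708 to 51240080) encodes the coactivator OBF-1, which germinal centres require. It had 10.77 and 10.17, and was 1.52-fold higher in the library labelled WT, with an interval from 1.41 to 1.63. It was the member with the most negative log2 difference, -0.60, and stayed lower in the library labelled Chi3l1 KO under each scaling tried. Which cells of the cultures express Pou2af1 was not tested. Of 8 germinal centre genes outside the list, 4 had more than 3 reads, and all 4 were lower in the library labelled Chi3l1 KO, none by 2-fold, with a median log2 difference of -0.40. After the trend with GC content was removed, Mef2b, a factor upstream of Bcl6, changed sign. Bcl6, the factor that directs the germinal centre program, had 9.66 and 9.45, and S1pr2, a receptor that keeps B cells in the germinal centre, had 9.58 and 9.02. T cells also use both genes. Rgs13 and Gcsam, which germinal centre B cells express, had no read in either library.

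The plasma cell members were not higher. Tnfrsf13b, which encodes the BAFF and APRIL receptor TACI, had 7.81 and 7.72, and its ratio of 0.938 has an interval from 0.776 to 1.13. Sdc1, which encodes the plasma cell marker CD138, had 6.91 and 6.79, and its ratio of 0.917 has an interval from 0.705 to 1.19. The median of these 2 genes was -0.11 on the log2 scale. Both changed sign when the libraries were scaled to their summed counts without Rn45s, and Sdc1 also did so after the trend with GC content was removed. Tnfrsf17, which encodes the plasma cell receptor BCMA, had no read in either library. Jchain, which encodes the joining chain of secreted IgM and IgA, had 0 and 2 reads. With a floor of 3 reads, neither gene was detectable above the floor at this depth. Of the 8 other plasma cell genes, 7 were higher in the library labelled Chi3l1 KO, with a median log2 difference of 0.27, and 1 was at least 2-fold higher. The remaining gene, Mzb1, differed by -0.003 and was higher under median-ratio, quantile and summed-count scaling and with the GC trend removed. The gene at least 2-fold higher was Fkbp11, a chaperone of secretory cells, with 25 and 73 reads and a 2.92-fold ratio with an interval from 1.83 to 4.79. The abundant Irf4 and Xbp1, factors that activated T cells also express, had log2 differences of 0.24 and 0.29.

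By stage, the median log2 difference was 0.83 for the 25 mature B cell genes, 0.93 for the 4 germinal centre or activation genes and -0.11 for the plasma cell genes over the floor. Of the mature B cell genes, 23 were higher in the library labelled Chi3l1 KO and 8 were at least 2-fold higher. The plasma cell median rests on 2 genes and the germinal centre median on genes that differ in sign. These stages were not compared by a test.

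**Figure D3:**
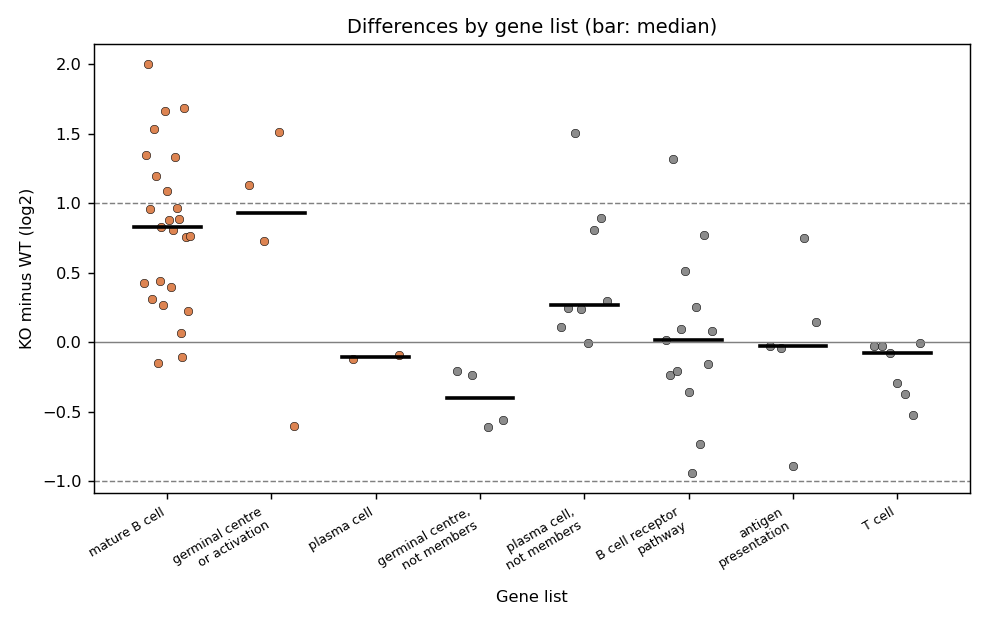
Difference of the deposited log2 values (KO minus WT) of each gene with more than 3 reads in at least 1 library, by gene list, with the B cell genes in orange, other lists in grey and bars at the medians. Medians are 0.83 for mature B cell genes and -0.11 for plasma cell genes, against -0.08 for T cell markers.

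Most B cell genes were far below the T cell markers in both libraries. Levels of different genes were compared as normalized counts per kilobase of exon. Cd3e, a subunit of the T cell receptor complex, had a level of 7715 in the library labelled WT and 7309 in the library labelled Chi3l1 KO. On the same scale, Cd79a was at 178 and 316, or 2.30% and 4.32% of Cd3e. Ms4a1 was at 9.56 and 18.8, or 0.124% and 0.257% of Cd3e, and Pax5 was at 10.4 and 19.4. Fcer2a was far above these genes, at 992 and 1821, or 12.9% and 24.9% of Cd3e. In the library labelled Chi3l1 KO this was above the T cell marker Cd28, which had 1703. Fcer2a was followed in the library labelled WT by Pou2af1 at 687, Cd83 at 364 and Ralgps2 at 304. In the library labelled Chi3l1 KO it was followed by Cd83 at 603, Pou2af1 at 453, and by Cd22 at 317 and Cd79a at 316, whose levels were nearly equal. Among the genes over the floor, the lowest levels were those of Cr2, at 0.592 and 2.14, and Cd180, at 1.93 and 6.00. The 33 B cell genes together took 0.0215% of the summed normalized counts in the library labelled WT and 0.0342% in the library labelled Chi3l1 KO. Without Fcer2a and Ralgps2 the shares were 0.0117% and 0.0194%. The totals differ, at 68448996 and 60913079, and the sums of the 33 genes had a ratio of 1.41. On the same measure the 7 T cell markers took 0.295% and 0.301%.

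**Figure D4:**
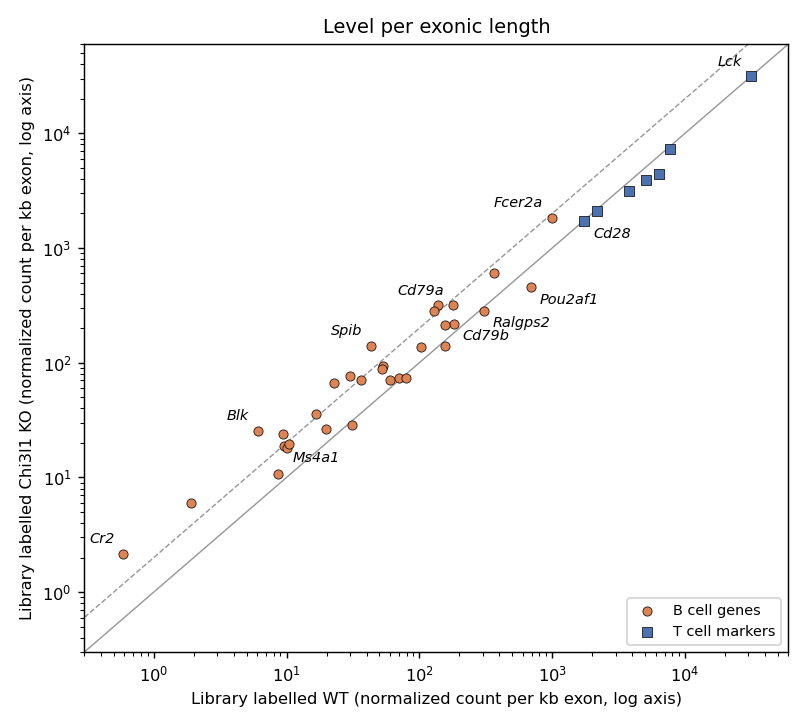
Normalized count per kilobase of exon in the library labelled Chi3l1 KO against that in the library labelled WT, both on log axes, for the B cell genes (circles) and the T cell markers (squares), with lines at equal level and at 2-fold higher. The T cell markers lie on or below the line of equal level, where 4 of the 7 would lie above it under quantile or summed-count scaling, and most B cell genes lie above it.

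Other genes of the B cell receptor pathway did not share the difference as a group. Of 13 such genes, 7 were higher and 6 lower in the library labelled Chi3l1 KO, with a median log2 difference of 0.02. Removing the GC trend left these counts as they were. The most abundant of the 13, the phosphatases Inpp5d and Ptpn6, are also used by T cells and had log2 differences of -0.36 and 0.08. Of the 5 genes of antigen presentation by MHC class II, none differed by 2-fold. They did not shift alike, with log2 differences from -0.89 for Ciita to 0.75 for H2-Aa. Cd74, the invariant chain, had 14.14 and 14.11, a difference whose sign turned under quantile and summed-count scaling and with the GC trend removed, and H2-Ab1 had 10.40 and 10.55. Of 5 genes of B cell progenitors, Igll1, Rag1 and Rag2 had no read in either library. Vpreb1, a surrogate light chain, had 5 and 17 reads, a ratio of 3.42 with an interval from 1.20 to 11.8. Dntt, which adds bases at antigen receptor joints, had 9.63 and 9.80.

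All 7 T cell markers were lower in the library labelled Chi3l1 KO, with log2 differences from -0.525 for Cd5 to -0.002 for Lck and a median of -0.08. For Cd3e, Cd3d, Lck and Cd28 the sign turned under quantile normalization and under scaling to the summed counts without Rn45s, and Lck also turned under median-ratio scaling and with the GC trend removed. The B cell markers among the members, Ms4a1, Cd79a, Cd79b and Pax5, were all higher, with the values given above. Markers of other cells were also read, because several members are known from them. Among markers of conventional dendritic cells, 3 of the 4 over the floor were higher. Flt3 had 18 and 68 reads and Zbtb46 had 14 and 48 reads, while Itgax had 44 and 5 reads. Xcr1 had 0 and 5 reads, Clec9a and Cd209a were at 0 in both, and the summed counts of the list were 73.6 and 122. Among markers of plasmacytoid dendritic cells, 3 of 5 were higher, and the defining marker Siglech was at 0 in both. Ly6d had 78 and 117 reads and Tcf4 had 475 and 350. The summed counts of the list were 547 and 469, of which Tcf4 alone made up 459 and 337. Of monocyte or macrophage markers, 2 of 5 were higher, among them Csf1r with 97 and 175 reads and Mrc1 with 0 and 29 reads, while Lyz2 had 34 and 2 reads, Adgre1 was at 0 in both, and the sums were 147 and 205. All 4 neutrophil markers over the floor were lower, such as Ngp with 23 and 0 reads, Elane with 20 and 0 reads and Mpo with 32 and 5 reads. The library labelled Chi3l1 KO had no read for 6 of the 7 listed neutrophil genes, and the sums were 81.2 and 4.79. Of the 3 NK cell markers, 2 were higher, with sums of 27.1 and 52.1. Klra8 had 11 and 39 reads, and Klrb1c had 17 and 9. The CD8 genes Cd8a and Cd8b1 went in opposite directions, with log2 differences of 0.60 and -0.47. The part of these other cells in the B cell gene result was not tested. The 17 members over the floor that are not listed as known from other leukocytes had a median log2 difference of 0.83, and the 14 that are had 0.74. Those 17 include Fcer2a and Pou2af1, at 992 and 687 per kilobase of exon in the library labelled WT, beside 9.56 for Ms4a1. Whether the 17 are confined to B cells was not tested.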

How the data were processed

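RNA of 1 library labelled WT Th1 and 1 library labelled Chi3l1 KO Th1 was analysed. The authors made polyadenylated RNA libraries, mapped paired reads with TopHat to mm10, counted unique and multiple alignments and normalized them globally. The submitters' processing notes name TopHat, edgeR and mm10. The deposited values were taken to be log2(normalized count + 1). This was inferred from the even spacing of low values. Of values under 12 counts, at least 99.9% lay within 0.1 of a whole read, and reads were rebuilt by rounding. Above that range the rounding was not checked. Versions and the annotation of the authors are not given in the sources used here.

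The difference is the deposited value in the KO library minus that in the WT library, and 2-fold is a difference of at least 1. Lists are described over genes with more than 3 reads in at least 1 library. Folds are ratios of normalized counts with 95% exact binomial intervals. Exon lengths, positions and GC content came from GENCODE M21 (GRCm38) and promoters from RefSeq. Every member was named. Of other lists, the genes past 2-fold with a log2 value of at least 4 and the 2 highest were named. Zero-read or defining markers (Rgs13, Gcsam, Igll1, Rag1, Rag2, Xcr1, Clec9a, Cd209a, Siglech, Adgre1), Cd5, Ciita, H2-Aa and some genes whose sign turned with the scaling were named beside them. Protein sequences were not used. Some genes of the other lists are counted there but not reported here by name. The members and lists were chosen with earlier results of these data known. The calculations were tested on simulated data. The analysis ran in Python 3.11.15 with pandas 2.3.3 and numpy 2.4.6, intervals were computed in scipy 1.17.1, and plots were drawn with matplotlib 3.10.9.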

Additional observations from a re-analysis of the deposited data

How the results depend on the processing

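Under a pseudocount of 0.1 or 10, median-ratio scaling, quantile normalization, scaling to the summed counts without Rn45s, removal of the GC trend and both filters on low values, from 8 to 14 B cell genes were at least 2-fold higher in the library labelled Chi3l1 KO, and none was 2-fold lower. The count was 19 higher and 1 lower at 1.5-fold and 3 higher at 3-fold, and 5 higher among members not listed as known from other leukocytes. These changes follow from the threshold and from fewer genes. The median of the B cell genes stayed between 0.78 and 0.95. Scaling to the summed counts without Rn45s moved the median of all genes by 0.12, and relative to that shift the B cell genes had a median of 0.83. The plasma cell median turned from -0.11 to 0.03 under that scaling, which is -0.09 relative to the shift. The GC trend removed from members was between -0.21 and 0.23, and no member past 2-fold changed sign under the 6 alternatives computed for each gene.

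Over the whole table, 1147 genes were at least 2-fold higher and 1418 lower, a split that became 1356 and 1155 under that scaling. The counts were 334 and 481 with a pseudocount of 10, 476 and 630 where either library reached a log2 value of 4, 470 and 615 where both reached 2, 2345 and 2795 at 1.5-fold, and 573 and 733 at 3-fold. Few reads limit Cr2, Cd180, Vpreb3 and Btk. No paired analysis was possible because each genotype has 1 library.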
